A study of Mus musculus with 2 samples.

Results

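B cells of the dissociated mouse liver were chosen by their transcripts in 2 single-cell libraries. A barcode was selected when it held at least 1000 unique molecular identifiers (UMIs, each standing for 1 captured RNA molecule), at least 400 genes and at most 30% mitochondrially encoded UMIs. Of the B lineage markers Ebf1, Pax5, Cd79a, Bank1, Ms4a1 and Ighd it had to hold at least 3 UMIs, at least 1 of them from Pax5, Bank1 or Ms4a1. Of 8 genes of other lineages (Clec4f, Vsig4, Cd5l, Stab2, Ptprb, Skap1, Dcn and Siglech) it could hold no more than 1 UMI. These limits kept 659 B cells out of 42372 barcodes that passed the UMI, gene and mitochondrial limits: 210 of 20158 in WT and 449 of 22214 in N-LKO.

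The WT library came from liver of control mice and the N-LKO library from liver plus tumor of mice that lacked NgBR, encoded by Nus1, in the liver, and the number of mice behind each library is not given in the sources used here. NgBR is a subunit of the cis-prenyltransferase that makes the dolichol carrier of N-glycans, and the deletion was driven by albumin Cre, which is active in hepatocytes and not in B cells. Both groups were male C57BL6 mice given a Western diet for 16 weeks, although the sample titles call the same diet HFD, and hepatocytes, nonparenchymal cells and, for N-LKO, tumor cells were mixed at set ratios before loading. With 1 library per group no difference could be tested: every 95% interval covers counting error only, and genotype, tumor tissue and library cannot be told apart.

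B cells bind antigen through membrane immunoglobulin, a pair of heavy chains with kappa or lambda light chains, which signals through its partners Cd79a and Cd79b. Most resting B cells of the blood and spleen carry IgM and IgD, present peptides on MHC class II and are drawn to follicles by the chemokine receptor Cxcr5. Once activated they may switch to IgG, IgE or IgA or become plasma cells, whose endoplasmic reticulum folds secreted antibody. The liver holds B cells in its sinusoids and around its portal tracts.

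UMIs of at least 2 different rule markers were present in 91.9% of WT members and 94.2% of N-LKO members, which the rule itself largely sets. Bank1, an adaptor of the B cell receptor, was the most widely detected, in 93.8% of WT and 91.5% of N-LKO members, followed by Ebf1, a pioneer factor of the lineage, in 75.7% of WT and 77.3% of N-LKO members. The label was checked on genes that the rule did not use. At least 1 UMI of 11 other B cell genes (among them Cd79b, Cd22, Blk, Fcmr, Fcer2a, Cr2, Ralgps2, Fcrla, Pou2af1 and Cd72) was found in 78.6% of WT members (95% interval 72.4 to 83.9) and 75.3% of N-LKO members (71.0 to 79.2). The same genes gave 10.4% and 14.0% in T and NK barcodes of the same libraries, which were chosen by Cd3d, Cd3e, Cd3g, Trbc2, Skap1 and Nkg7. Those barcodes could hold no more than 1 UMI of the rule markers, so that barcodes richer in B cell RNA were left out of them.

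Many members sat near the limits that chose them. The summed rule markers had a median of 5 UMIs in both libraries, with 47 WT and 97 N-LKO members at exactly 3 and maxima of 18 and 25. Just outside, 69 WT and 125 N-LKO barcodes held 2 such UMIs, and 282 and 532 reached 3 but held 2 or more UMIs of other lineages. The members were shallow: the median was 1238 UMIs and 743 genes in WT and 1388 UMIs and 793 genes in N-LKO, with 281609 and 719257 UMIs in all. Mitochondrially encoded UMIs had a median of 13.3% in WT and 17.6% in N-LKO. Of 139 barcode sequences kept in both libraries, 0 WT and 4 N-LKO members carried one.

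RNA free in the suspension took a large share of each profile. Hepatocyte markers, which B cells do not make, took 7.40% of the UMIs of WT members and 4.33% of those of N-LKO members, against 13.9% and 8.27% in barcodes under 500 UMIs. On that scale free RNA made up 53.4% of member UMIs in WT and 52.4% in N-LKO. In single members the hepatocyte markers took 2.20% to 14.9% of UMIs in WT and 1.10% to 26.0% in N-LKO. The highest of these exceed the shares in barcodes under 500 UMIs. The scale counts all hepatocyte RNA as free RNA, and whether some barcodes also held a hepatocyte was not tested. Levels are given as CPM, the UMIs of a gene per 1000000 UMIs of the members. Albumin (Alb) alone stood at 6246 CPM in WT and 4516 in N-LKO, and free RNA at these shares would give 6574 and 4573 CPM. Below, the level that free RNA alone would give is set beside some of the genes.

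Transcripts of other immune cells were also present. Of 14 macrophage and monocyte markers 11 passed a mean of 30 CPM, and their summed level was 1246 CPM in WT and 1831 in N-LKO members, against 219.8 and 463 from free RNA. Lysozyme (Lyz2) gave 373 CPM in WT and 659 in N-LKO, a log2 ratio of 0.82 that turned to -0.46 with at most 10% mitochondrial UMIs. That limit left 59 WT and 51 N-LKO members. The median of the list was 0.47 and lay between -0.76 and 1.23 over 18 alternatives, and of the 14 markers Marco alone was at 0, in N-LKO. Members with at least 3 such UMIs made up 14.8% of WT and 30.7% of N-LKO. Of 20 T and NK markers 3 passed, with summed levels of 479 and 310.0 CPM, Trdc and Cd4 at 0 in WT and Gzmb at 0 in N-LKO, and 10.5% and 7.35% of members held at least 3 of their UMIs. Neutrophil calprotectin S100a8 was at 35.5 CPM in WT and 168 in N-LKO, with Ly6g at 0 in both libraries.

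B cells took a larger share of the N-LKO barcodes. They were 1.04% of all kept barcodes in WT (0.906 to 1.19) and 2.02% in N-LKO (1.84 to 2.21), a difference of 0.979 percentage points (0.748 to 1.21). Of barcodes with a UMI of the leukocyte gene Ptprc, however, they were 137 of 4977 in WT, or 2.75%, and 320 of 10619 in N-LKO, or 3.01%, and the interval of that difference ran from -0.320 to 0.802 points. Against T and NK barcodes the share was again larger, 25.8% in WT (22.8 to 28.9) and 38.4% in N-LKO (35.6 to 41.2). The first share depends on how cells were mixed before loading. It was higher in N-LKO under every other way of choosing members tried, by 0.220 points with at most 10% mitochondrial UMIs and by 2.05 points when 12 other B cell genes made the choice. The 12 genes, Ly6d among them, chose 127 WT and 595 N-LKO barcodes. Only 76 and 161 of these were also members by the rule.

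Across all genes the members of both libraries had similar levels at the centre and wide tails. Of 5222 genes with a mean of at least 30 CPM, 490 (9.38%) were at least 2-fold higher in N-LKO and 520 (9.96%) at least 2-fold lower, and the median log2 ratio (N-LKO over WT, 0.5 UMI added to each sum) was 0.05. Ratios were higher for genes that cover more of the genome. The fifth of genes with the shortest span, median 5.25 kb, had a median log2 ratio of -0.50 with 36 genes past 2-fold higher and 253 lower. The fifth with the longest span, median 176 kb, had a median of 0.51 with 244 higher and 8 lower. The part of gene span in any single ratio was not tested. A gene under 20 CPM in 1 library passes the mean of 30 CPM only if it is past 2-fold: this holds for 106 of the 490 genes called higher and 66 of the 520 called lower. Such calls follow from the filter. The counts past 2-fold in the gene lists below are to be read against the shares of all genes, 9.38% higher and 9.96% lower.

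**Figure D1:**
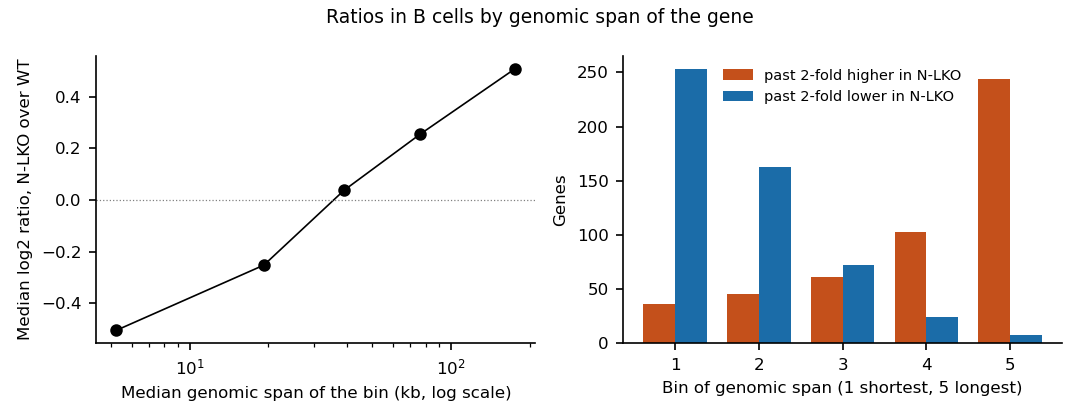
Left, the median log2 ratio of CPM in B cells (N-LKO over WT) in 5 equal bins of genes against the median genomic span of the bin in kb on a log axis. Right, the number of genes past 2-fold higher or lower in N-LKO in each bin, from 36 higher and 253 lower in the shortest to 244 higher and 8 lower in the longest.

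The genes that led the B cells over all other barcodes were those of the resting B cell. Ranked by the smaller of the folds over the rest in the 2 libraries, the 25 leading genes held all 6 rule markers and 19 others. Among these were the low-affinity IgE receptor Fcer2a, the IgM receptor Fcmr, complement receptor Cr2, the kinase Blk, the chemokine receptor Ccr6, the Fc receptor-like genes Fcrl1 and Fcrl5 and the surrogate light chain relative Vpreb3. As the barcodes were selected on B cell genes, this order is a description. Between libraries 0 of the 25 were past 2-fold higher in N-LKO, 2 were past 2-fold lower, and the median log2 ratio was -0.27. The 2 were Gm31243 and Agbl1. Gm31243, a transcript that lies antisense to Bank1, stood at 206 CPM in WT and 93.2 in N-LKO, and reads of the pair may not be fully separated. Agbl1 stood at 117 CPM in WT and 47.3 in N-LKO, in 7.14% of WT and 2.45% of N-LKO members, and 63.6% and 76.5% of its UMIs came from 5 members in each library.

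**Figure D2:**
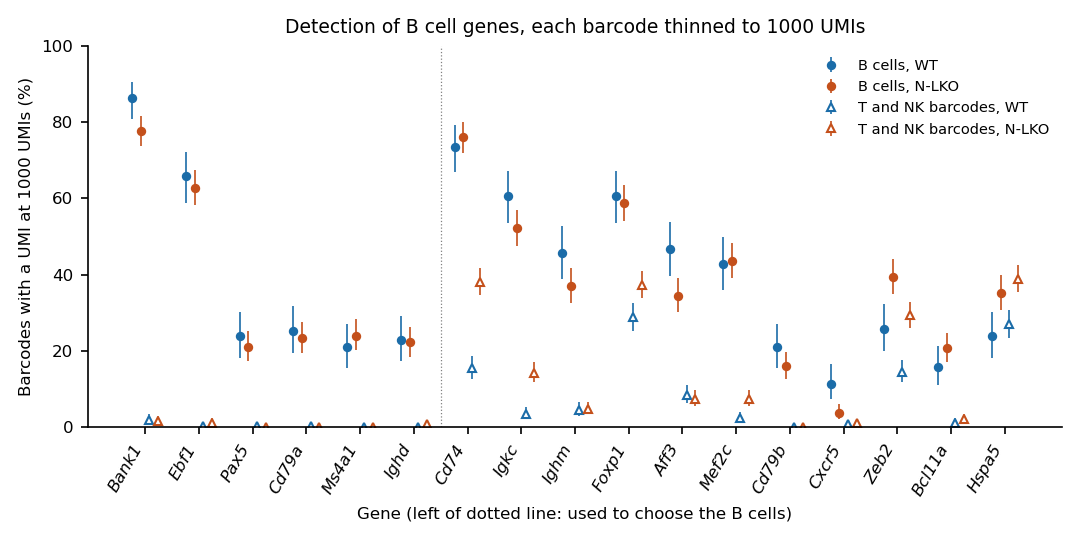
Percent of barcodes with at least 1 UMI after each was thinned to 1000 UMIs, for 17 genes, in B cells (circles) and T and NK barcodes (triangles) of WT (blue) and N-LKO (orange), with 95% exact binomial intervals. The 6 genes left of the dotted line chose the B cells, and the T and NK barcodes could hold no more than 1 UMI of them. Cxcr5 and Aff3 lie lower in N-LKO B cells while Zeb2 and Hspa5 lie higher.

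The 6 rule markers are given as a description. Bank1 was at 2052 CPM in WT (95% interval 1889 to 2227) and 1518 in N-LKO (1429.5 to 1611), Ebf1 at 1285 CPM in WT (95% interval 1156 to 1425) and 1046 in N-LKO (972 to 1123) and Pax5 at 288 CPM in WT (95% interval 228 to 358) and 238 in N-LKO (203 to 276). Cd79a was at 302 CPM in WT and 261 in N-LKO, Ms4a1 at 266 CPM in WT and 274 in N-LKO and Ighd at 234 CPM in WT and 241 in N-LKO. In T and NK barcodes none exceeded 15.9 CPM, but their selection sets this, since they could hold no more than 1 UMI of the 6 genes. In the 81 WT and 202 N-LKO barcodes chosen instead by the 11 other B cell genes, Bank1 was at 1426 and 746 CPM, a log2 ratio of -0.94 (-1.21 to -0.66), and Ebf1 at 1055 and 676 CPM, a log2 ratio of -0.64 (-0.95 to -0.33). Only 51 WT and 105 N-LKO barcodes were selected both ways. Over the members, the 6 rule markers together gave 4.43 UMIs per 1000 in WT and 3.58 in N-LKO. The part of this difference in the ratios of other B cell genes was not tested.

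Of the transcription factors of B cells only 1 was past 2-fold, and the others lay on both sides of 0. Of 25 factors 22 passed the filter, 1 was past 2-fold higher and 0 lower, and the median log2 ratio was -0.07 beside 0.05 over all genes, and between -0.86 and 0.02 over 18 alternatives. Lower in N-LKO were Aff3, a nuclear factor of the lymphoid super elongation complex, at 653 CPM in WT (95% interval 562 to 755) and 427 in N-LKO (380.4 to 477), and Ets1, which restrains plasma cell differentiation, at 352 CPM in WT (95% interval 286 to 428) and 228 in N-LKO (194 to 266). Their log2 ratios were -0.62 (-0.88 to -0.34) and -0.63 (-0.99 to -0.25). Foxp1, a keeper of the mature follicular state, was at 1182 CPM in WT and 933 in N-LKO, at a log2 ratio of -0.34 (-0.53 to -0.15). These 3 stayed below 0 under all 18 alternatives.

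Other factors were higher in N-LKO members. Foxo1, needed for B cell development and homing, was at 121 CPM in WT (95% interval 83.6 to 169) and 209.9 in N-LKO (178 to 246), with a log2 ratio of 0.78 (0.25 to 1.38) that stayed above 0 under all 18 alternatives. Bcl11a was at 167 CPM in WT (95% interval 123 to 222) and 278 in N-LKO (241 to 319) and Tcf4 at 284 CPM in WT (95% interval 225 to 354) and 413 in N-LKO (367 to 463). Their log2 ratios of 0.72 and 0.53 became -0.93 and -0.62 when 12 other B cell genes chose the members. Of the 127 WT and 595 N-LKO barcodes so chosen, only 76 and 161 were members by the rule. Zeb2, also abundant in macrophages and NK cells, was at 444 CPM in WT and 742 in N-LKO in B cells and at 203 and 525 CPM in T and NK barcodes. Its B cell log2 ratio turned from 0.74 to -0.31 with the mitochondrial limit at 10%, which left 59 WT and 51 N-LKO members. The factor past 2-fold was Spi1 (PU.1), shared with myeloid cells, at 39.1 CPM in WT and 91.8 in N-LKO from 11 and 66 UMIs. The part of the higher macrophage transcripts in Zeb2 and Spi1 was not tested. Bach2 at 728 CPM in WT and 644 in N-LKO and Mef2c at 753 CPM in WT and 619 in N-LKO were among the most abundant, with log2 ratios of -0.18 (-0.42 to 0.07) and -0.28 (-0.52 to -0.04).

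B cell receptor signalling genes lay within 2-fold between the libraries. Of 31 genes 30 passed, 0 were past 2-fold in either direction, and the median log2 ratio was -0.10. Over 18 alternatives the median lay between -1.005, with 12 other B cell genes choosing the members, and 0.12. The kinases Lyn, at 589 CPM in WT and 601 in N-LKO, and Syk, at 341 CPM in WT and 273 in N-LKO, the adaptor Blnk, at 170.4 CPM in WT and 174 in N-LKO, and the coreceptor Cd22, at 56.8 CPM in WT and 65.3 in N-LKO, had log2 ratios of 0.02 (-0.23 to 0.29), -0.33 (-0.68 to 0.04), 0.02 (-0.46 to 0.54) and 0.17 (-0.64 to 1.12). Toward the lower end lay Blk, a Src kinase of B cells, at 103 CPM in WT (95% interval 69.0 to 148) and 57.0 in N-LKO (40.9 to 77.3), the receptor subunit Cd79b at 227 CPM in WT (95% interval 175 to 290.2) and 164 in N-LKO (136 to 196) and Cd38, an ectoenzyme, at 227 CPM in WT (95% interval 175 to 290.2) and 147 in N-LKO (121 to 178). Their log2 ratios were -0.86 (-1.57 to -0.11), -0.48 (-0.92 to -0.01) and -0.63 (-1.09 to -0.15), and free RNA would give at most 25.9 CPM of any of the 3. The highest ratio was that of Pik3ap1 (BCAP), an adaptor for PI3 kinase, at 110.1 CPM in WT (95% interval 74.8 to 156) and 213 in N-LKO (180.3 to 249), at a log2 ratio of 0.93 (0.39 to 1.56), while T and NK barcodes gave 66.1 and 124 CPM. Prkcb, the kinase upstream of NF-kB, was at 536 CPM in WT and 432 in N-LKO, at a log2 ratio of -0.31 (-0.60 to -0.02).

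Kappa and lambda shares were compared next. A member counted as kappa or lambda by whichever of Igkc and the Iglc genes gave more UMIs, and 139 WT and 310 N-LKO members could be assigned. Kappa made up 105 of 139 in WT, or 75.5% (67.5 to 82.4), and 234 of 310 in N-LKO, or 75.5% (70.3 to 80.2), and the interval of the difference ran from -8.22 to 8.90 percentage points. UMIs of both kappa and lambda genes were present in 32.4% of WT and 25.8% of N-LKO members. In T and NK barcodes, which make no immunoglobulin, an Igkc UMI occurred at 4.97% in WT and 19.6% in N-LKO, and a UMI of any Iglc gene in 2.15% and 2.50%. The Iglc genes are near-identical copies, so that their reads may be split between them: Iglc2 was at 312 CPM in WT and 324 in N-LKO and Iglc3 at 195 CPM in WT and 111 in N-LKO, and 45.1% of the N-LKO Iglc2 UMIs came from 1 member.

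Heavy chain classes are given as a description, since Ighd UMIs helped to choose the members and so raise the share of IgM or IgD. Heavy chain UMIs were found in 138 WT and 302 N-LKO members, of which 131, or 94.9% (89.8 to 97.9), and 270, or 89.4% (85.4 to 92.6), were IgM or IgD. Switched members, with more IgG, IgA or IgE than IgM and IgD UMIs, were 7 in WT, or 5.07%, and 32 in N-LKO, or 10.6%, and the interval of the difference ran from -0.326 to 10.3 points. Of the switched members 2 in WT and 20 in N-LKO were mainly IgA, which is 1.45% and 6.62% of those with a heavy chain. An Igha UMI was present in 2.38% of WT and 11.8% of N-LKO members, and in 1.66% of WT and 9.57% of N-LKO T and NK barcodes. The share of members with an Igha UMI thus lies close to that of cells that make none.

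A few members held most of the Igha UMIs and a large part of the Igkc UMIs. At least 3 UMIs of Jchain, which joins IgA and IgM units, were found in 3 WT members and 6 N-LKO members, 1.43% and 1.34%. These held 92.2% of the Igha UMIs of WT and 93.3% of those of N-LKO, and 44.0% and 69.3% of the Igkc UMIs. Summed over all members, Igha was at 227 CPM in WT and 1009 in N-LKO and Igkc at 2226 CPM in WT and 2995 in N-LKO. Without these 9 members Igha was at 18.1 CPM in WT and 69.2 in N-LKO, and Igkc was at 1274 and 934 CPM, so that its log2 ratio turned from 0.43 to -0.45. In N-LKO the highest Igha values in 1 member were 231, 168 and 94 UMIs, while the highest outside the Jchain members was 2.

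Ighm, the IgM heavy chain, was lower in N-LKO, at 1104 CPM in WT (95% interval 985 to 1234) and 491 in N-LKO (441 to 545), at a log2 ratio of -1.17 (-1.39 to -0.95). A single WT member held 119 of the 311 WT UMIs. Without members of 3 or more Jchain UMIs the levels were 697 and 486 CPM and the log2 ratio was -0.52, which is no longer past 2-fold. Chosen by the 11 other B cell genes, members gave the opposite direction, 1.15. Thinned to 1000 UMIs, an Ighm UMI was seen in 45.7% of WT and 37.0% of N-LKO members, a difference of -8.74 points (-16.8 to -0.722), and in 4.64% and 4.85% of T and NK barcodes. Unthinned, the members gave 50.5% and 47.0%. Gm30211, which overlaps Igkc on the same strand, was at 245 CPM in WT and 89.0 in N-LKO, at a log2 ratio of -1.46 (-1.98 to -0.95), and its reads cannot be fully separated from those of the kappa locus.

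**Figure D3:**
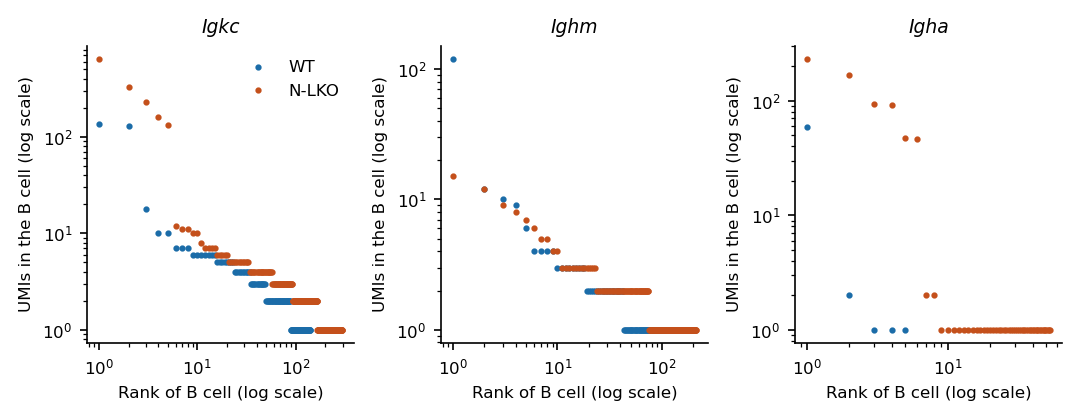
UMIs of Igkc, Ighm and Igha in each B cell that held any, ranked from the highest, on log axes, for WT (blue) and N-LKO (orange). In N-LKO 6 members hold 46 or more Igha UMIs and no other holds more than 2.

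MHC class II genes were abundant in both libraries. Of 18 genes 13 passed, 0 were past 2-fold, and the median log2 ratio was 0.10, a direction that turned to -0.12 with free RNA subtracted and to -0.58 with at most 10% mitochondrial UMIs. The invariant chain Cd74 was at 2102 CPM in WT (95% interval 1936 to 2279) and 2247 in N-LKO (2139 to 2359) and found in 82.9% and 86.9% of members. H2-Aa was at 707 CPM in WT and 848 in N-LKO, H2-Ab1 at 607 CPM in WT and 592 in N-LKO and H2-Eb1 at 589 CPM in WT and 569 in N-LKO. Ciita, the class II transactivator, was at 121 CPM in WT and 97.3 in N-LKO and the costimulator Cd86 at 138 CPM in WT and 127 in N-LKO. T and NK barcodes, by contrast, gave 397 and 1049 CPM of Cd74 in WT and N-LKO and a median log2 ratio of 1.21 over the 9 list genes that passed there. Class I genes were likewise near even, with 13 of 19 passing, 1 past 2-fold higher, 0 lower and a median of 0.13.

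Genes of the follicular, recirculating B cell were mostly lower in N-LKO. All 9 of the list passed the filter, 2 were past 2-fold lower and 0 higher, and the median log2 ratio was -0.63, against 0.05 over all genes. The 25 genes that led the B cells, Fcer2a and Fcmr of this list among them, had a median of -0.27. In T and NK barcodes 3 of the 9 passed, with a median of -0.03. The 2 past 2-fold lower are to be read against the 9.96% of all genes. The median of the follicular list lay between -1.45 and -0.44 over 18 alternatives. Cxcr5, the receptor for the follicle chemokine Cxcl13, was at 114 CPM in WT (95% interval 77.7 to 160.4) and 43.1 in N-LKO (29.3 to 61.2). That is 32 and 31 UMIs, from 14.8% and 6.46% of members, at a log2 ratio of -1.40 (-2.16 to -0.64). Thinned to 1000 UMIs per member, a Cxcr5 UMI was seen in 11.4% of WT and 3.79% of N-LKO members, a difference of -7.64 points (-12.8 to -3.40). Its log2 ratio lay between -2.40 and -0.71 over 18 alternatives and was past 2-fold in 17. Free RNA would give 1.05 and 2.75 CPM.

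Ccr7, which guides lymphocytes into lymphoid tissue, was at 49.7 CPM in WT (95% interval 27.2 to 83.4) and 20.9 in N-LKO (11.7 to 34.4) from 14 and 15 UMIs, at a log2 ratio of -1.26 (-2.41 to -0.09). Cd55, a complement regulator, was at 234 CPM in WT and 163 in N-LKO, at a log2 ratio of -0.53 (-0.97 to -0.07), and Ralgps2 at 376 CPM in WT and 288 in N-LKO, at a log2 ratio of -0.39 (-0.73 to -0.04). Fcmr at 107 CPM in WT and 66.7 in N-LKO, Klf2 at 110.1 CPM in WT and 69.5 in N-LKO and S1pr1 at 74.6 CPM in WT and 48.7 in N-LKO had ratios below 0 whose intervals reached above it. Fcer2a, at 67.5 CPM in WT and 73.7 in N-LKO, was among the 2 members of the list above 0, at a log2 ratio of 0.10 (-0.65 to 0.97) that turned to -0.19 with the 11 other genes.

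Among 22 homing and adhesion genes, which include Cxcr5 and Ccr7, 15 passed, with 1 past 2-fold higher (Rgs2, a regulator of G protein signals, at 35.5 CPM in WT and 79.2 in N-LKO, turning to -2.00 with at most 10% mitochondrial UMIs), 2 lower and a median of -0.13. These counts are to be read against 9.38% of all genes higher and 9.96% lower. Gpr183 (EBI2), an oxysterol receptor that places B cells at the follicle edge, was at 220.2 CPM in WT (95% interval 169 to 282) and 133 in N-LKO (108 to 163), at a log2 ratio of -0.73 (-1.20 to -0.24) that was below 0 in 18 of 18 alternatives. In T and NK barcodes it was at 53.9 and 60.1 CPM. Cd44, the hyaluronan receptor, was at 128 CPM in WT and 192 in N-LKO, at a log2 ratio of 0.57 (0.05 to 1.16), with T and NK barcodes at 142 and 241 CPM. The integrin Itga4 was at 319.6 CPM in WT and 292 in N-LKO.

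Genes of other B cell subsets were sparse, and their counts past 2-fold are to be read against 9.38% of all genes higher and 9.96% lower. Of 10 marginal zone genes 7 passed, 1 was past 2-fold higher and 0 lower, and the median was 0.61 (between -0.56 and 0.87 over 18 alternatives), while that of the 3 genes passing in T and NK barcodes was 1.14. Cr2 (CD21), high on marginal zone cells, was at 103 CPM in WT and 97.3 in N-LKO, at a log2 ratio of -0.10 (-0.73 to 0.60). Notch2, their fate receptor, was at 85.2 CPM in WT and 136 in N-LKO, and Marcks at 142 CPM in WT and 218 in N-LKO, whose log2 ratio turned from 0.61 to -0.71 with at most 10% mitochondrial UMIs. The gene past 2-fold was Cd9, at 14.2 CPM in WT and 57.0 in N-LKO, where the filter fixes the call, with 20.8 and 70.6 CPM in T and NK barcodes and 6.28 and 30.2 CPM from free RNA. Of 10 B1 genes 4 passed, Plac8 at 227 CPM in WT and 236 in N-LKO and Anxa2 past 2-fold higher at 35.5 CPM in WT and 117 in N-LKO, while the B1 surface genes Cd5 and Spn did not pass, with 2 and 4 UMIs and 5 and 14 UMIs. Among 9 germinal center genes 3 passed, and Fas, a death receptor, was past 2-fold higher at 21.3 CPM in WT and 55.6 in N-LKO from 6 and 40 UMIs. Of 8 age-associated genes 4 passed, and Itgam, shared with myeloid cells, was past 2-fold higher at 17.8 CPM in WT and 51.4 in N-LKO, with T and NK barcodes at 9.79 and 50.3 CPM and its call fixed by the filter. Anxa2 and Itgam turned to -0.23 and -0.20 when the 11 other genes chose the members. Of 12 transitional and precursor genes 3 passed and 0 were past 2-fold.

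UMIs of the division genes Mki67 and Top2a were rare, and 1 such UMI does not make a dividing cell. An Mki67 or Top2a UMI was present in 4 of 210 WT members, or 1.90% (0.521 to 4.80), and in 26 of 449 N-LKO members, or 5.79% (3.82 to 8.37), against 14.9% and 12.3% of T and NK barcodes. Thinned to 1000 UMIs, Mki67 was seen in 0.952% of WT and 2.67% of N-LKO members and Top2a in 0.952% and 3.56%, and both intervals of the difference included 0. Free RNA would give 1.5 and 5.93 CPM of Mki67 and 2.94 and 6.7 CPM of Top2a. Top2a, whose call the filter fixes, was at 7.1 CPM in WT and 65.3 in N-LKO from 2 and 47 UMIs, of which 12 came from 1 member and 28 from 5. Its ratio of 2.90 (1.27 to 6.29) on the log2 scale rests on those few cells. Of 24 cell cycle genes 5 passed, 1 past 2-fold higher and 0 lower.

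Of 26 survival and NF-kB genes 15 passed, 2 past 2-fold higher and 1 lower, shares near the 9.38% and 9.96% of all genes, with a median of 0.01. Nfkb1 was at 135 CPM in WT (95% interval 95.5 to 185) and 228 in N-LKO (194 to 266), at a log2 ratio of 0.74 (0.24 to 1.31). Relb was at 17.8 CPM in WT and 48.7 in N-LKO and the inhibitor Nfkbia at 35.5 CPM in WT and 77.9 in N-LKO, both past 2-fold higher, and Rela at 49.7 CPM in WT and 20.9 in N-LKO, past 2-fold lower from 14 and 15 UMIs. Relb, whose call the filter fixes, rested on 5 and 35 UMIs and turned to -0.49 with 12 other B cell genes. Bcl2 was at 170.4 CPM in WT and 231 in N-LKO, at a log2 ratio of 0.43 (-0.03 to 0.93) that turned to -0.61 with 12 other B cell genes.

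Of 25 cytokines and cytokine receptors 13 passed, 1 past 2-fold higher and 1 lower, beside 9.38% and 9.96% of all genes. Il6ra, the IL-6 receptor chain, was at 28.4 CPM in WT (95% interval 12.3 to 56.0) and 87.6 in N-LKO (67.3 to 112), at a log2 ratio of 1.55 (0.56 to 2.90) that was past 2-fold in 18 of 18 alternatives, while free RNA would give 7.65 and 23.1 CPM and T and NK barcodes held 35.5 and 68.9 CPM. The lower gene was Ccl4, at 67.5 CPM in WT and 30.6 in N-LKO, a chemokine that T and NK barcodes held at 383 and 117 CPM and whose ratio turned to 1.93 with the 11 other genes. Il10 gave 1 UMI in each library. Toll-like receptor genes had 6 of 17 passing and 0 past 2-fold. Cd180, a lipopolysaccharide coreceptor of B cells, was at 85.2 CPM in WT and 142 in N-LKO, at a log2 ratio of 0.71 (0.08 to 1.44) that turned to -0.84 with 12 other B cell genes, and Tlr9 gave 0 UMIs in both.

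Of 30 interferon-stimulated genes 9 passed, 2 past 2-fold higher and 0 lower, with a median of 0.10. The 2 were Trim30a, at 60.4 CPM in WT and 132 in N-LKO, and Ifi204, at 21.3 CPM in WT and 61.2 in N-LKO from 6 and 44 UMIs. Immediate early and heat shock genes had 20 of 32 passing, 2 past 2-fold higher and 1 lower. These counts, and those of the interferon-stimulated and inhibitory genes, are to be read against 9.38% of all genes higher and 9.96% lower. Egr1 was at 42.6 CPM in WT and 97.3 in N-LKO and Atf3 at 21.3 CPM in WT and 48.7 in N-LKO, whereas Jun was lower, at 114 CPM in WT and 55.6 in N-LKO, with free RNA at 49.1 and 36.8 CPM. Inhibitory receptors and ligands had 14 of 26 passing, with Sirpa alone past 2-fold higher at 32.0 CPM in WT and 75.1 in N-LKO, and Btla, which restrains receptor signalling, at 348 CPM in WT and 278 in N-LKO, at a log2 ratio of -0.33 (-0.68 to 0.04).

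Protein folding genes of the endoplasmic reticulum were higher in N-LKO members. Of 27 unfolded protein response genes 19 passed, 17 had ratios above 0, as did 53.2% of all genes, 2 were past 2-fold higher, near the 9.38% of all genes, 0 were lower, and the median log2 ratio was 0.64, against 0.05 over all genes and 0.48 in T and NK barcodes. The chaperone Hspa5 (BiP) was at 269.9 CPM in WT (95% interval 213 to 338) and 529.7 in N-LKO (478 to 586), where free RNA alone would give 136 and 336 CPM. Its log2 ratio was 0.97 (0.61 to 1.35), and thinned to 1000 UMIs it was detected in 23.8% of WT and 35.2% of N-LKO members. Hsp90b1 was at 337 CPM in WT and 599 in N-LKO, with free RNA at 127 and 318 CPM, and Calr at 217 CPM in WT and 341 in N-LKO. The log2 ratio of Calr turned from 0.64 to -0.077 with at most 10% mitochondrial UMIs and to -0.13 with the 11 other genes.

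The 2 past 2-fold were sensors and effectors of the response. Ern1 (IRE1), which splices Xbp1 mRNA, was at 32.0 CPM in WT (95% interval 14.6 to 60.7) and 121 in N-LKO (96.9 to 149) from 9 and 87 UMIs, at a log2 ratio of 1.85 (0.93 to 3.10) that was past 2-fold in 18 of 18 alternatives. Xbp1 was at 71.0 CPM in WT (95% interval 43.4 to 109.7) and 157 in N-LKO (129 to 189), at a log2 ratio of 1.12 (0.45 to 1.91), with free RNA at 55.3 and 50.3 CPM and T and NK barcodes at 90.6 and 97.1 CPM. It was past 2-fold in 12 of 18 alternatives and turned to -0.25 with the 11 other genes. Atf6, the other membrane sensor, was at 124 CPM in WT and 236 in N-LKO, and the PERK gene Eif2ak3 at 78.1 CPM in WT and 75.1 in N-LKO, at a log2 ratio of -0.08 (-0.80 to 0.73). The list median was 0.32 with free RNA subtracted, 0.45 without the Jchain members and 0.07 with the 11 other genes. Of 14 plasma cell genes 7 passed, with Xbp1 and Jchain past 2-fold higher and 0 lower, to be read against 9.38% and 9.96% of all genes. Jchain was at 170.4 CPM in WT and 571 in N-LKO. Members with at least 3 of its UMIs held 93.8% of them in WT and 97.6% in N-LKO. Without those members Jchain was at 10.9 CPM in WT and 14.1 in N-LKO.

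Nuclear genes of the respiratory chain were lower in N-LKO members as in the T and NK barcodes. All 76 passed, 51 were past 2-fold lower, against 9.96% of all genes, and 0 were higher, against 9.38% of all genes. Their log2 ratios ran from -1.86 to -0.17 with a median of -1.20, against -1.06 in T and NK barcodes. Uqcr10 of complex III was at 547 CPM in WT (95% interval 464 to 640.4) and 150.2 in N-LKO (123 to 181), Cox7b of complex IV at 689 CPM in WT and 213 in N-LKO and Ndufc1 of complex I at 380.0 CPM in WT and 118 in N-LKO. Free RNA alone would give 499.6 CPM of Uqcr10 in WT and 125 in N-LKO. The part of free RNA in these levels was not tested. Over the list, the members held 25184 CPM in WT and 10769 in N-LKO, of which free RNA would give 82.8% and 61.1%. With free RNA subtracted the median was -0.14 and the ratio of Cox7b turned to 0.36. The genes of the list have a median span of 7.37 kb. Mitochondrially encoded genes, in contrast, had 12 of 13 ratios above 0, 0 past 2-fold and a median of 0.33, with mt-Co1 at 22936 CPM in WT and 27090.5 in N-LKO and free RNA at 18378 and 28391 CPM. In T and NK barcodes their median was 0.42. With free RNA subtracted the B cell median turned to -8.92 and mt-Co1 to -9.97, since little or nothing of the N-LKO level then remains, and the share of mitochondrially encoded UMIs was itself a limit of the selection.

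**Figure D4:**
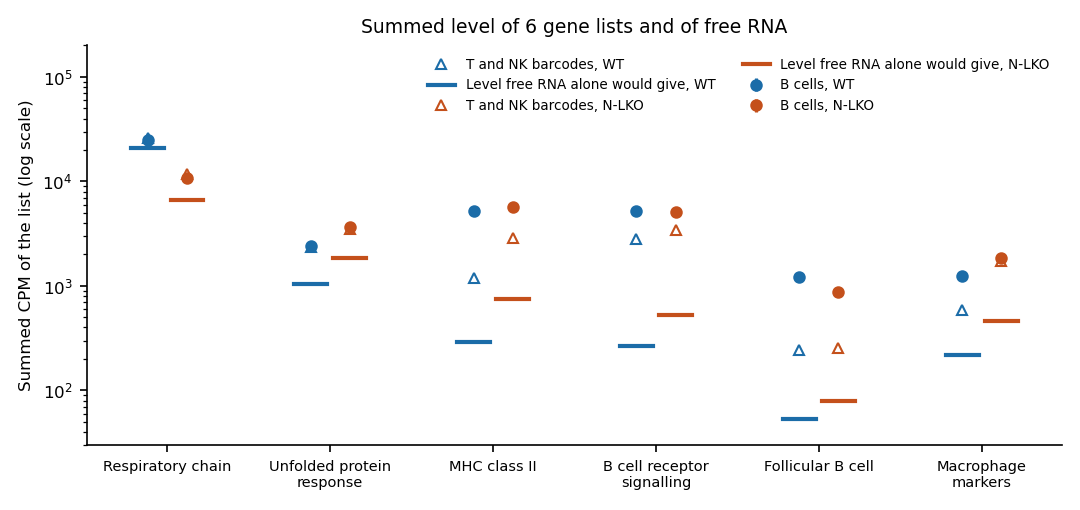
Summed CPM (log axis) of 6 gene lists in B cells (circles, with 95% Poisson intervals) and T and NK barcodes (triangles), with the level that free RNA alone would give (bars), for WT (blue) and N-LKO (orange). Free RNA comes closest to the B cell level for the respiratory chain, at 82.8% of it in WT and 61.1% in N-LKO. It lies far below it for MHC class II, receptor signalling and follicular genes.

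**Figure D5:**
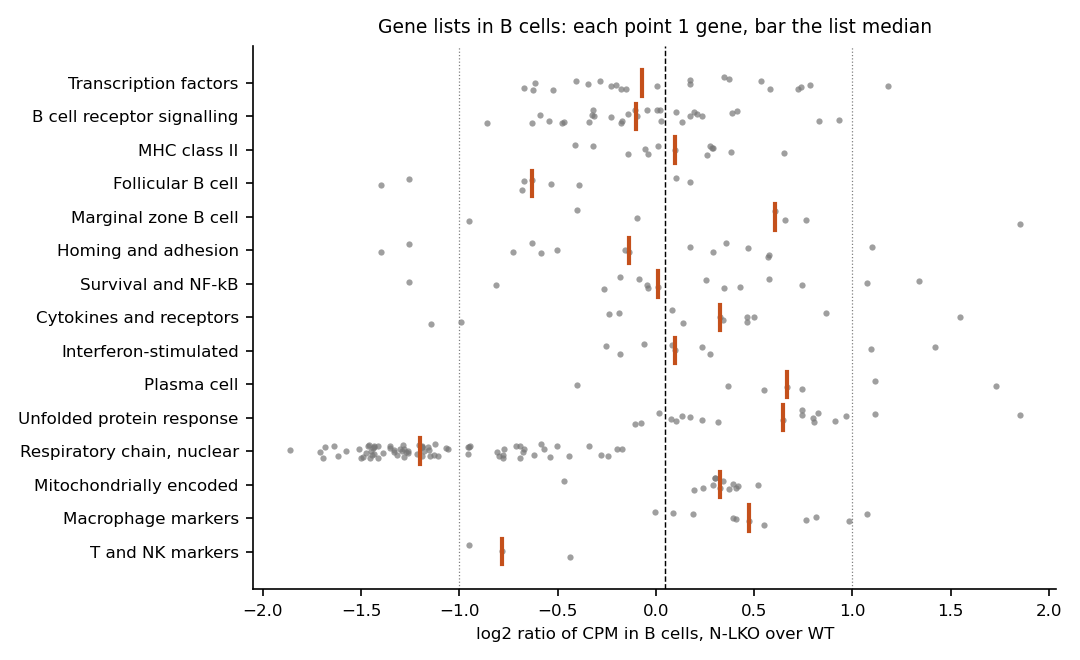
Log2 ratio of CPM in B cells (N-LKO over WT) of each gene with a mean of at least 30 CPM in 15 lists, with the list median as an orange bar, the median of all genes (0.05) as a dashed line and 2-fold as dotted lines. The respiratory chain lies lowest, receptor signalling and MHC class II lie near the median of all genes, and follicular genes lie below it.

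Ranked over all genes by the interval bound nearest to 0, and at least 2 times over free RNA, the 12 genes furthest above 0 were Nrg4, Spp1, Zbtb16, Pdzrn3, Eda, Rad51b, Fndc3b, Pcsk5, Chsy3, Egfr, Garem1 and Igha. Egfr, the EGF receptor, was at 99.4 CPM in WT (95% interval 66.1 to 144) and 516 in N-LKO (465 to 571), in 9.05% of WT and 29.6% of N-LKO members. Zbtb16 (PLZF), a factor of innate-like lymphocytes, was at 24.9 CPM in WT and 259 in N-LKO, and Spp1 (osteopontin) at 21.3 CPM in WT and 236 in N-LKO, with 50.6% of its N-LKO UMIs in 5 members and free RNA at 9.61 and 82.8 CPM. Eda, a ligand of the TNF family, was at 10.7 CPM in WT and 129 in N-LKO and Rad51b, a recombination gene, at 35.5 CPM in WT and 267 in N-LKO. Nrg4, a ligand of the EGF family, gave 0 UMIs in WT and 49 in N-LKO. Its 68.1 CPM in N-LKO was at least 6.39-fold higher than the floor of 3 UMIs in WT. Nrg4, Pdzrn3, Eda and Pcsk5 were under 20 CPM in WT, where the filter fixes the call. For 11 of the 12 the ratio in T and NK barcodes was also past 2-fold, Igha being the exception, and 10 of the 12 span more than 100 kb. T and NK barcodes held Egfr at 77.1 and 298 CPM and Zbtb16 at 67.3 and 229.6 CPM, and free RNA would give 70.4 and 159.9 CPM and 13.4 and 91.4 CPM in the B cells.

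By the same rule the 12 genes furthest below 0 were Ccl5, H2-Ke6, Slirp, Atp5c1, Polr2k, Wdr61, Gm30211, Ighm, Sec14l4, Hbb-bs, Hnrnpab and Nars, all with spans under 25 kb. H2-Ke6, at 15.3 CPM, and Sec14l4, at 11.1 CPM, were under 20 CPM in N-LKO, where the filter fixes the call. Ccl5, a chemokine of T and NK cells, was at 919.7 CPM in WT (95% interval 811 to 1039) and 263 in N-LKO (227 to 303) in the B cells and at 6059.6 and 2081 CPM in T and NK barcodes, and 41.3% of its WT UMIs came from 5 members. The adult beta globin Hbb-bs was at 131 CPM in WT and 45.9 in N-LKO, with 33 of its 37 WT UMIs in 1 member. Free RNA would give 50.0 and 59.8 CPM of it, more than the N-LKO members held, and its ratio turned to 0.05 with 12 other B cell genes and 0.42 with 11. Atp5c1, of the ATP synthase, was at 355 CPM in WT and 131 in N-LKO with free RNA at 171 and 49.7 CPM, and Slirp, a mitochondrial RNA binder, at 85.2 CPM in WT and 20.9 in N-LKO with 42.0 and 10.8 CPM. In T and NK barcodes 11 of the 12 ratios were below 0, Hbb-bs being the exception, and 3 were past 2-fold lower.

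Nus1 itself, deleted in hepatocytes, was low in B cells. It gave 23 UMIs in WT and 44 in N-LKO, or 81.7 CPM in WT (95% interval 51.8 to 123) and 61.2 in N-LKO (44.4 to 82.1), at a log2 ratio of -0.43 (-1.18 to 0.38) that turned to 0.28 with at most 10% mitochondrial UMIs, with free RNA at 30.9 and 19.6 CPM and T and NK barcodes at 69.8 and 55.6 CPM. Its partner Dhdds gave 3 and 17 UMIs. Of 12 dolichol synthesis genes 3 passed and 0 were past 2-fold.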

How the data were processed

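Liver cells were profiled in 2 droplet libraries (10x 3′ v3), 1 for WT and 1 for N-LKO. The deposited values are UMI counts per gene and barcode, made by the authors with Cell Ranger 7.1.0 according to the file header. The submitters' processing notes also name mm9 and Seurat. The matrices held 100171 WT and 90147 N-LKO barcodes with 85522287 and 87575064 UMIs. They had not been reduced to cells, and no annotation of cells by the authors was used. The B cell rule, the gene lists and the thresholds were chosen with earlier results of these data known.

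Counts were summed over the B cells of a library and given as CPM with exact Poisson 95% intervals. Ratios had exact conditional binomial intervals, shares Clopper-Pearson intervals and differences of shares Newcombe intervals. Genes with a mean of at least 30 CPM were compared, called past 2-fold with 0.5 UMI added to each sum, and no test was run. Besides list genes, the text names the 12 genes on each side whose interval bound nearest 0 was furthest from it and which were at least 2 times over free RNA, and the 25 genes of highest fold over other barcodes. Other gene names were chosen after their values were seen. Free RNA was profiled in barcodes under 500 UMIs and scaled on 31 hepatocyte markers. No doublet caller was run, and barcodes were not tested for empty droplets. Gene spans and overlaps came from GENCODE M21 (GRCm38), another build than mm9, and no coordinates are given. A few genes of the lists are not reported here by name. Scripts in Python 3.11.15 with scipy 1.17.1 (intervals), numpy 2.4.6 and pandas 2.3.3 were tested on simulated data.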

Additional observations from a re-analysis of the deposited data

How the results depend on the processing

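Over 19 alternatives and 157 results, 2391 recomputed values stayed within counting error of the reported one (gene counts, within 1.5 times), 393 moved further and 19 reversed a value past 2-fold. The share of B cells was higher in N-LKO by 0.979 percentage points, and by 0.662 with at least 500 UMIs, 1.26 with at least 2000, 0.22 with at most 10% mitochondrial UMIs, 0.452 with at least 5 rule marker UMIs, 0.51 with no other-lineage UMI, 2.05 with 12 other B cell genes, 0.508 with 11 and 0.512 without members of 3 or more macrophage UMIs. Genes past 2-fold higher, 490, became 1197 at the 10% limit, 908 with 11 genes, 819 with free RNA subtracted, 1076 from 10 CPM and 248 from 60 CPM, and genes past 2-fold lower, 520, became 993, 817, 1041 and 321 at the 10% limit, with 11 genes, from 10 and from 60 CPM, while the other settings gave 357 to 670 higher and 419 to 613 lower. The median of the respiratory chain genes, -1.20, was -1.31 with 500 UMIs, -1.37 at the 10% limit, -0.40 with 12 genes, -1.49 with 11, -1.25 without macrophage-rich members, -1.25 less the median of all genes and -0.14 with free RNA subtracted. That of the unfolded protein response, 0.64, was 0.30, 0.30 and 0.074 at the 10% limit and with 12 and 11 genes, 0.79 with 2 or more different rule markers, 0.45 without Jchain members, 0.52 thinned to 1000 UMIs, 0.32 with free RNA subtracted and 0.27 from 10 CPM. Single genes past 2-fold reversed with 12 genes (Igha -0.12, Ighm 0.18, Hbb-bs 0.052, Spi1 -0.093, Jchain -0.22, Relb -0.49, Ccl4 1.64, Itgam -0.53), with 11 (Ccl4 1.93, Nfkbia -0.038, Ighm 1.15, Hbb-bs 0.42, Xbp1 -0.25, S100a8 -0.0074, Anxa2 -0.23, Itgam -0.20), with free RNA subtracted (Cox7b 0.36), from 500 UMIs (Ccl4 0.015) and at the 10% limit (Rgs2 -2.00). Of 126 named genes 51 changed sign under at least 1 alternative. Thresholds and filters change which genes are counted; otherwise the cause was not tested. Choosing by 11 genes, by 2 or more rule markers and without Jchain or macrophage-rich members were added after the data were seen, the first because free RNA held more Ly6d in N-LKO than in WT. A minimum of 2000 UMIs left 9 WT members, and no ratios were computed for it. The 10% limit left 59 WT and 51 N-LKO members. The choice by 12 genes took 127 WT and 595 N-LKO barcodes, of which 76 and 161 were members by the rule. No paired analysis was possible because each group has 1 library.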
